A study of Saccharomyces cerevisiae with 14 samples.

Results

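The genes described here take up sulphate, reduce it to sulphide, build cysteine, methionine and S-adenosylmethionine from it, move sulphur compounds across membranes, or regulate these steps in the yeast Saccharomyces cerevisiae. There were 36 of them among 5449 genes measured, listed by gene name as known members of the pathway, and each had exactly 1 probe set on the array. No threshold on a value was used, except that MET17 was left out as a marker at background. The list was drawn up with earlier results of these data known. They are grouped below by role as sulphate permeases, sulphate activation and reduction, homocysteine and methionine synthesis, transsulphuration, the S-adenosylmethionine cycle, transport of organic sulphur and sulphite, regulators, and alternative sulphur sources.

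Yeast activates sulphate in a reaction that consumes ATP and reduces it in steps to sulphide, which is then joined to a carbon chain to give homocysteine, the precursor of methionine and, through transsulphuration, of cysteine. The activator Met4 switches these genes on when sulphur amino acids run low; it has no DNA-binding activity of its own and is brought to promoters by Cbf1 or by the related zinc finger proteins Met31 and Met32. The ubiquitin ligase subunit Met30 restrains Met4 when sulphur is plentiful, so the pathway is usually read as a gauge of the cell's sulphur supply.

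Total RNA from 14 cultures grown to log phase in rich YPD medium was hybridised to Affymetrix Yeast 2.0 arrays, in 7 groups of 2 duplicate cultures. The groups were deletions of NPT1, PNC1, BNA1 or TNA1, each replaced with kanMX4, the wild type with 5 mM nicotinamide (NAM), and the untreated wild type as pairs coded ML1 and ML8. Every group shares a MATa background with the alleles his3D200, leu2D1, met15D0, trp1D63 and ura3-167. The series asks how loss of NAD+ synthesis, uptake or salvage genes, or added nicotinamide, which inhibits sirtuin deacetylases, changes gene expression.

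The allele met15D0 deletes MET17 (also called MET15), the homocysteine synthase that joins sulphide to O-acetylhomoserine, so controls and test cultures alike lacked the step that links the reduction branch to methionine. The MET17 probe set read 1.98 to 2.02 (log2 signal) on all 14 arrays, below the background limit of 2.22 to 2.26, and it was left out of the 36 genes. All results therefore describe a strain that depends on organic sulphur, which rich medium supplies.

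Each deleted gene was at or near background in its own strain. NPT1 read 2.18 and 2.19 in npt1Δ, PNC1 2.17 and 2.18 in pnc1Δ, BNA1 1.98 and 1.89 in bna1Δ, and TNA1 2.09 and 2.28 in tna1Δ, the last value just over the limit. The arrays had median signals of 9.75 to 9.84 (log2), with 97.5 to 98.5% of probe sets over the limit. The a-specific mating genes, which mark MATa cells, stood apart in nicotinamide, with array means over 7 genes of 9.36 and 7.0 against 13.0 to 13.1 in wild type, so the nicotinamide cultures differed from the others, and from each other, in mating-type expression. Each array measured a whole culture, so a change in the share of cells that express a gene and a change per cell cannot be told apart.

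Nicotinamide raised the sulphate reduction branch and several transporters. Differences are in log2 signal with the standard error (SE) of the limma contrast, 2 arrays of the condition against the 4 wild-type arrays, and calls were made where p, adjusted over all probe sets, was under 0.05. Of the 36 genes, 15 (41.7%) were called higher and 1 lower, while over all 5498 probe sets 8.88% were called higher and 7.02% lower. The median difference of the 36 genes was 0.44, against -0.00 over all probe sets, and 30 of the 36 had a positive difference. Of the 36, 4 rose at least 2-fold, where the share over all probe sets was 3.36%. Both nicotinamide arrays lay above all 4 wild-type arrays for 22 genes (61.1%, against 16.4% of all probe sets) and below them for 1 (against 16.7%). Over all probe sets 488 were called higher and 386 lower. After centring each array on its median this was 553 and 285, and after quantile normalization 453 and 532, so the balance over all probe sets depended on the normalization.

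**Figure D1:**
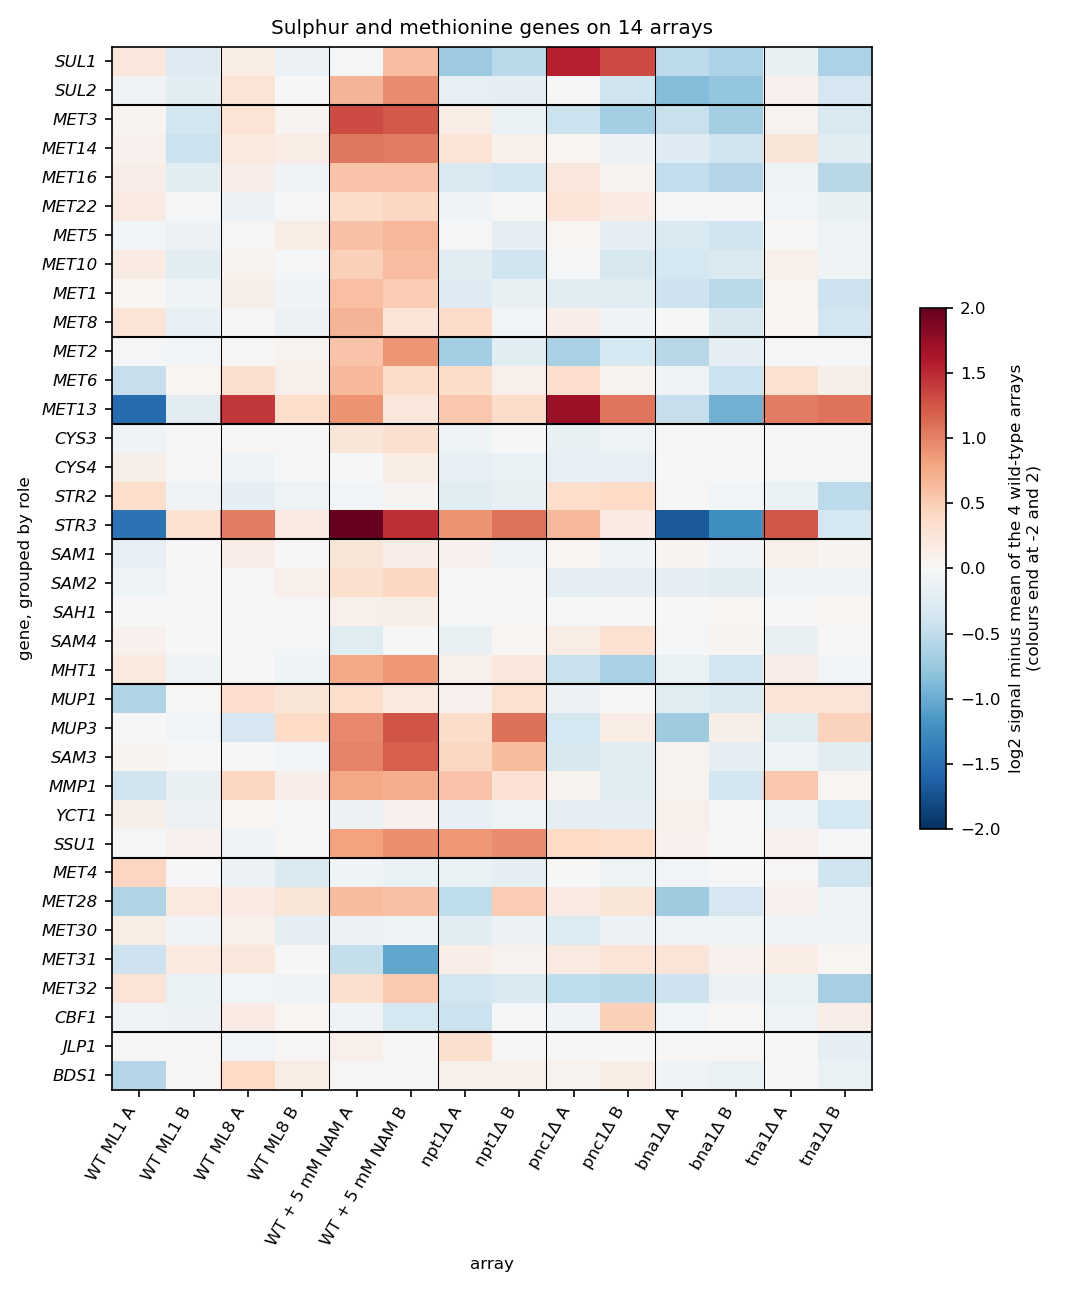
Heat map of the 36 genes (rows, ordered by role) on the 14 arrays (columns), where colour gives the log2 signal minus the mean of the 4 wild-type arrays, on a scale limited at both ends. Along the 8 sulphate reduction rows (MET3 to MET8) both nicotinamide columns lie above the wild-type mean, and SSU1 is above it in the nicotinamide, npt1Δ and pnc1Δ columns.

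Sulphate activation and reduction rose almost as a whole, with 7 of 8 genes called higher. MET3, the ATP sulphurylase that activates sulphate, read 11.84 and 11.77 with nicotinamide, against 10.59 and 10.15 (ML1) and 10.81 and 10.58 (ML8) in wild type. Its rise of 1.27 ± 0.18 (2.41-fold, adjusted p = 0.000634) was the highest called in the branch, and the groups did not overlap. MET14, the kinase of the next step, read 12.25 on both nicotinamide arrays, against 11.28, 10.77, 11.40 and 11.36 in wild type, a rise of 1.05 ± 0.18 (2.07-fold, adjusted p = 0.00227). Again every nicotinamide array was above every wild-type array.

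The later reduction steps rose by less. MET16, which makes sulphite from the activated sulphate, read 10.50 and 10.51 against 9.73 to 10.07 in wild type (0.57 ± 0.13, adjusted p = 0.0132). The subunit genes of sulphite reductase moved alike: MET5 read 12.55 and 12.62 against 11.85 to 12.11 (0.63 ± 0.09, adjusted p = 0.000674), and MET10 read 12.25 and 12.39 against 11.57 to 11.94 (0.54 ± 0.12, adjusted p = 0.011). None of these groups overlapped. MET1, a methyltransferase for sirohaem, the cofactor of sulphite reductase, read 10.04 and 9.94 against 9.35 to 9.55 (0.56 ± 0.11, adjusted p = 0.0075). MET22, a phosphatase that clears the nucleotide by-product of the pathway, read 12.58 and 12.64 against 12.10 to 12.40 (0.39 ± 0.08, adjusted p = 0.00733). MET8, which completes sirohaem, was not called, at 8.83 and 8.40 against 7.98 to 8.41, and its lower nicotinamide array fell within the wild-type range (0.46 ± 0.19, adjusted p = 0.136).

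**Figure D2:**
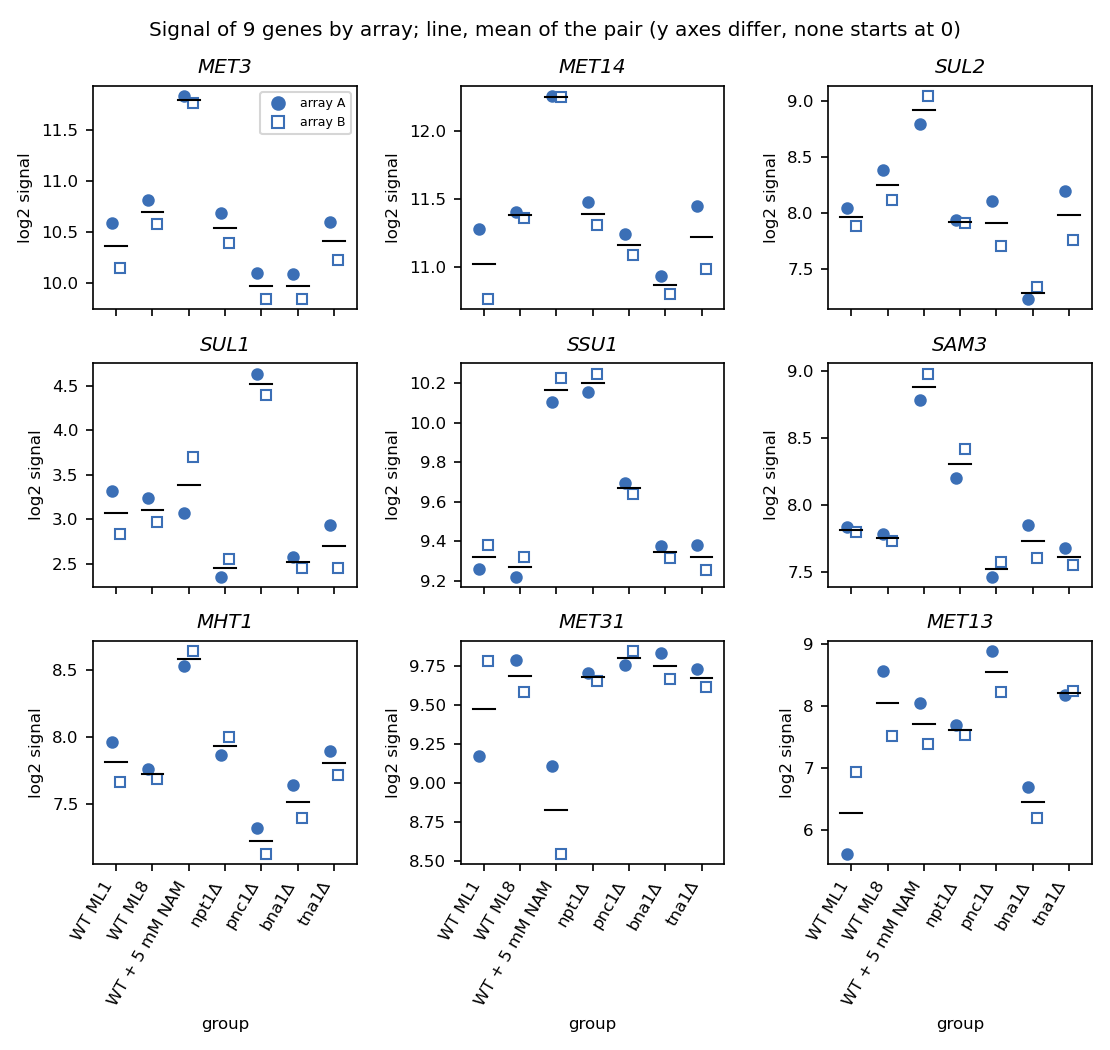
Log2 signal of 9 genes on each array, by group (array A as a filled circle, array B as an open square, the pair's mean as a line), with y axes that differ and do not start at 0. MET3, MET14, SUL2, SSU1, SAM3 and MHT1 lie above all wild-type arrays in nicotinamide, SSU1 also in npt1Δ and pnc1Δ, SUL1 is highest in pnc1Δ, MET31 is lowest in nicotinamide, and MET13 spreads widely in wild type.

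Of the sulphate permeases, SUL2 was called and SUL1 was not. SUL2 read 8.79 and 9.04 with nicotinamide, against 8.04 and 7.88 (ML1) and 8.38 and 8.12 (ML8), a rise of 0.81 ± 0.16 (1.76-fold, adjusted p = 0.00709). SUL1 was dim throughout, at 3.07 and 3.70 with nicotinamide against 2.83 to 3.32 in wild type, and its groups overlapped (0.30 ± 0.20, adjusted p = 0.399).

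In the synthesis of homocysteine and methionine 1 of 3 genes was called. MET2, which makes the O-acetylhomoserine that accepts sulphide, read 10.62 and 10.94 against 10.02, 9.999, 10.07 and 10.12 in wild type, a rise of 0.73 ± 0.15 (adjusted p = 0.0082). The wild-type arrays of MET2 lay within 0.13 of each other, well below either nicotinamide array. MET6, the methionine synthase, had a difference of 0.51 ± 0.20 (adjusted p = 0.122), and MET13, the reductase that supplies its methyl donor, 0.56 ± 0.62 (adjusted p = 0.648).

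Transsulphuration, which converts homocysteine to cysteine and back, had 1 of 4 genes called. CYS3, which releases cysteine from cystathionine, read 14.56 and 14.64 against 14.25 to 14.34 (0.28 ± 0.05, 1.22-fold, adjusted p = 0.00321). CYS4, the step before it, and STR2, which starts the opposite route, had differences of 0.07 and 0.00. STR3, the peroxisomal enzyme that completes that opposite route, had the largest difference of all 36, at 7.66 and 6.95 against 4.01, 5.79, 6.50 and 5.65, but its wild-type arrays spread over 2.50 and it was not called (1.82 ± 0.62, adjusted p = 0.0784).

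In the S-adenosylmethionine cycle 2 of 5 genes were called. MHT1, which methylates homocysteine from S-methylmethionine, read 8.53 and 8.64 against 7.96, 7.66, 7.76 and 7.69, a rise of 0.82 ± 0.11 (1.76-fold, adjusted p = 0.00041). SAM2 encodes an S-adenosylmethionine synthetase and read 12.85 and 12.95 against 12.45 to 12.64 (0.36 ± 0.06, adjusted p = 0.00153). Its paralogue SAM1 was not called, at 14.47 and 14.36 against 14.07 to 14.36 (0.19 ± 0.08, adjusted p = 0.188); the 2 genes are close in sequence, and cross-hybridisation between their probe sets was not tested. SAH1, which clears S-adenosylhomocysteine, and SAM4, which uses S-adenosylmethionine to methylate homocysteine, had differences of 0.11 and -0.12.

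Among 6 transporters, 3 were called. SSU1, the plasma membrane sulphite exporter, read 10.10 and 10.23 against 9.26, 9.38, 9.22 and 9.32 in wild type, a rise of 0.87 ± 0.07 (1.83-fold, adjusted p = 6.25e-06). SAM3, the S-adenosylmethionine permease, read 8.79 and 8.98 against 7.84, 7.80, 7.78 and 7.73, a rise of 1.10 ± 0.09 (2.14-fold, adjusted p = 1.37e-05). These had the smallest adjusted p of the 36, with wild-type arrays within 0.16 and 0.11 of each other. MUP3, a low-affinity methionine permease, read 10.25 and 10.54 against 9.28, 9.23, 8.95 and 9.68 (1.11 ± 0.31, 2.16-fold, adjusted p = 0.038), a call that was lost when any of 5 arrays was left out (all but ML8 array B), with an adjusted p of 0.0511 (without ML1 array A) to 0.254 (without nicotinamide array B). The S-methylmethionine permease gene MMP1 lay just outside the threshold, at 10.62 and 10.57 against 9.45 to 10.25 (0.76 ± 0.23, adjusted p = 0.0505), and was called higher in 8 of 16 alternatives, among them the wild-type pairs as separate groups (adjusted p = 0.0201). MUP1, the high-affinity methionine permease, had a difference of 0.27, and YCT1, a cysteine transporter, -0.02.

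None of the 6 regulators was called higher, and 1 was called lower. MET31, which brings Met4 to promoters, fell, at 9.11 and 8.55 with nicotinamide against 9.17, 9.78, 9.79 and 9.58 in wild type (-0.75 ± 0.18, 1.68-fold, adjusted p = 0.0198). The higher nicotinamide array lay just under the ML1 array A, and without nicotinamide array B the difference was -0.47. The call was lost with only the ML1 pair as control (adjusted p = 0.0658) and with only the arrays compared (adjusted p = 0.129). With all probe sets in the fit it was lost as well (adjusted p = 0.0555). MET32, its relative, read 6.89 and 7.10 against 6.44 to 6.84 and was not called (0.42 ± 0.15, adjusted p = 0.101). MET28, a cofactor that strengthens the Met4 complex on DNA, had a difference of 0.61 ± 0.29 (adjusted p = 0.205). The genes of Met4 itself, Cbf1 and Met30 had differences of -0.11, -0.21 and -0.10, none of them called. Of the alternative sources, neither the sulphonate dioxygenase gene JLP1 (0.06), which stayed near background at 2.71 to 3.23 on all arrays, nor the sulphatase gene BDS1 (0.00) was called.

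The nicotinamide cultures differed from each other far less in the 36 genes than in a-specific expression. Array A minus array B was 1.55 to 2.90 (median 2.46) over the 7 a-specific genes and -0.63 to 0.71 (median -0.01) over the 36. The a-specific genes also differed far more from wild type, by a median of -5.06 against 0.44 for the 36. The ranges are therefore not on a like scale. Array B, with the lower a-specific signals, was the higher array for 12 of the 15 genes called higher (80.0%, against 66.6% of all 488 probe sets called higher), by a median B minus A of 0.10 over the 15, and MET31 was lower on array B. Without nicotinamide array B 8 of the 36 were called, because CYS3, MET10, MET16, MET2, MET22, MUP3, SUL2 and MET31 no longer passed. Most of these differences stayed close to those with both arrays, such as 0.57 for MET16, 0.36 for MET22 and 0.69 for SUL2, while those of MET2 and MET31 became 0.57 and -0.47. Without nicotinamide array A, MET16 (adjusted p = 0.0737) and MET1 (adjusted p = 0.0702) did not pass. The part of the mating-type change in the sulphur gene result was not tested.

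**Figure D3:**
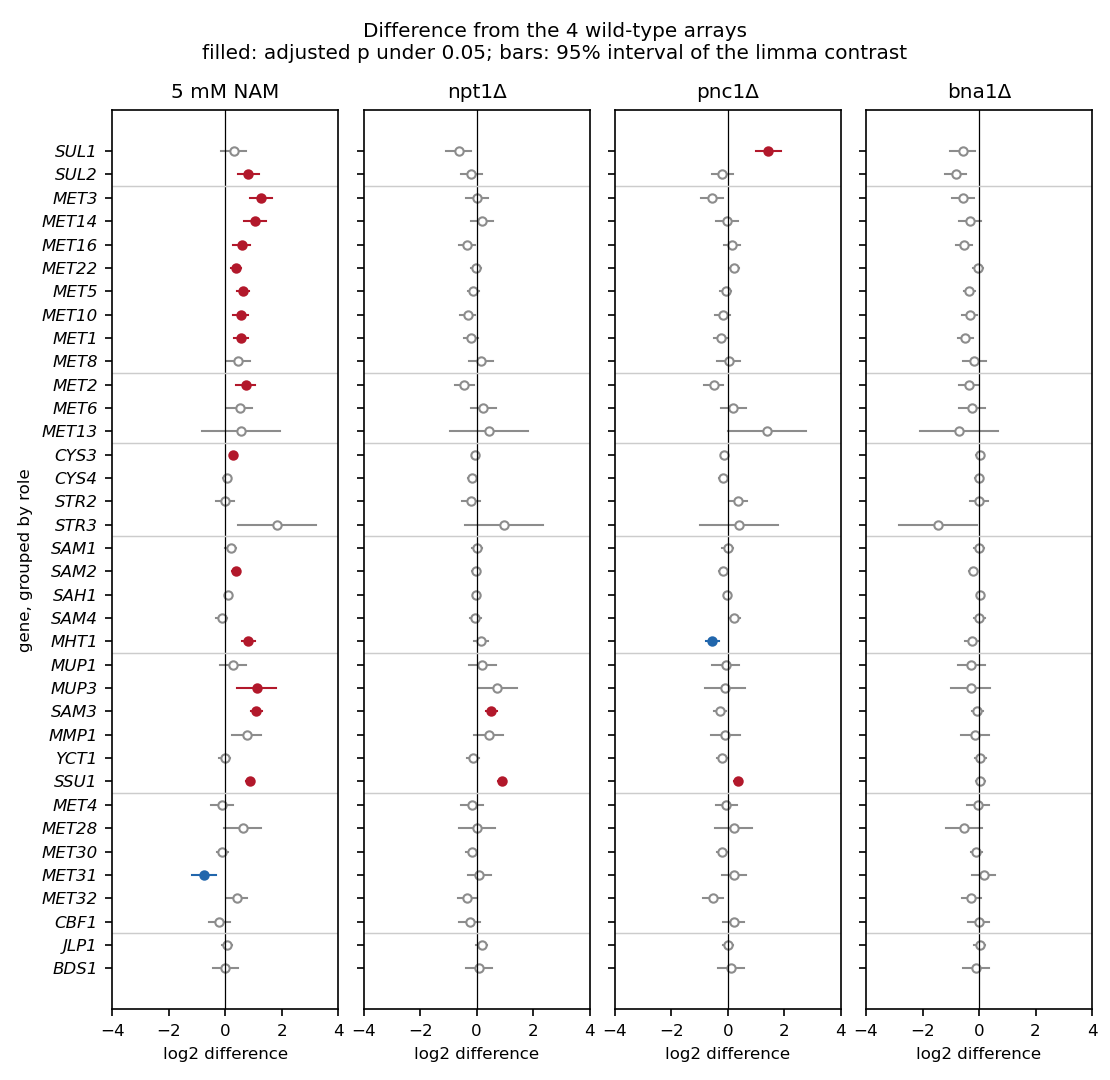
Log2 difference from the 4 wild-type arrays (points, with 95% intervals of the limma contrast as bars) for each of the 36 genes with nicotinamide and in npt1Δ, pnc1Δ and bna1Δ, with called genes filled, red above 0 and blue below. Nicotinamide has 16 filled points, 15 of them above 0, npt1Δ has 2, pnc1Δ has 3 and bna1Δ has 0.

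Loss of NPT1, the nicotinate phosphoribosyltransferase of NAD+ salvage, raised 2 transporters and left the rest of the pathway without a call. Over all probe sets 3.56% were called higher and 0.637% lower, against 2 (5.56%) and 0 of the 36, a share near the background. The counts over all probe sets were 196 higher and 35 lower, or 184 and 104 after quantile normalization. SSU1 read 10.15 and 10.25 in npt1Δ against 9.22 to 9.38 in wild type, a rise of 0.91 ± 0.07 (1.87-fold, adjusted p = 1.01e-05). SAM3 read 8.20 and 8.42 against 7.73 to 7.84, a rise of 0.52 ± 0.09 (1.44-fold, adjusted p = 0.00783). Neither overlapped wild type, though SAM3 was not called without npt1Δ array B (0.41, adjusted p = 0.109). The median of the 36 was -0.02, against -0.03 over all probe sets, and both npt1Δ arrays lay above wild type for 3 genes (8.33%, against 9.42%) and below it for 6 (16.7%, against 13.3%). None of the 8 sulphate activation and reduction genes was called, with differences of -0.33 to 0.19. SUL1 read 2.36 and 2.55, close to the limit, and was not called (-0.63 ± 0.20, adjusted p = 0.147).

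Loss of PNC1, the nicotinamidase that converts nicotinamide to nicotinic acid, changed the sulphate permease SUL1 most. SUL1 read 4.64 and 4.40 in pnc1Δ against 3.32, 2.83, 3.24 and 2.97 in wild type, a rise of 1.43 ± 0.20 (2.70-fold, adjusted p = 0.00534) at a low signal. SSU1 rose as well, at 9.70 and 9.64 against 9.22 to 9.38 (0.37 ± 0.07, 1.29-fold, adjusted p = 0.0173). MHT1 fell, at 7.32 and 7.12 against 7.66 to 7.96 (-0.55 ± 0.11, 1.46-fold, adjusted p = 0.0297). None of the 3 overlapped wild type. They made up 2 genes called higher and 1 lower of 36, where 0.818% and 1.42% of all probe sets were called.

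The calls in pnc1Δ depended on the arrays used: 0 of the 36 were called without pnc1Δ array A, 1 without array B, and 5 without the ML1 array A. MHT1 also lost its call without ML1 array B (adjusted p = 0.0519) or ML8 array A (adjusted p = 0.0554). SSU1 was not called with only the arrays of pnc1Δ and wild type in the fit (adjusted p = 0.132). Its difference was 0.35 without pnc1Δ array A and 0.40 without array B. The median of the 36 was -0.04, against -0.01 over all probe sets, but both pnc1Δ arrays lay below wild type for 10 genes (27.8%, against 13.4%) and above it for 4 (11.1%, against 9.79%). The 10 were MET3, MET1, MET2, CYS3, CYS4, SAM2, MHT1, SAM3, YCT1 and MET32, and apart from MHT1 none passed the test. MET3 read 10.10 and 9.85 against 10.15 to 10.81 (-0.56 ± 0.18, adjusted p = 0.155), and MET2 read 9.40 and 9.70 against 9.999 to 10.12 (-0.50 ± 0.15, adjusted p = 0.129).

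Without BNA1, an enzyme of de novo NAD+ synthesis from tryptophan, none of the 36 was called (limma). At an unadjusted p under 0.05 there were 11 of the 36, a count not made over all probe sets, so it has no background to be set against. At the adjusted threshold 0.0182% of all probe sets were called, namely BNA1 alone. The signals nevertheless sat low: 29 of 36 differences were negative, and the median was -0.19 against 0.02 over all probe sets. Both bna1Δ arrays lay below all wild-type arrays for 10 of the 36 (27.8%, against 2.09% of all probe sets) and above them for 0 (against 5.4%). The 10 were both sulphate permeases SUL1 and SUL2, MET3, MET16, MET5, MET10 and MET1 of the reduction branch, MET2, SAM2 and MHT1.

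SUL2 had the smallest adjusted p among them, at 7.23 and 7.34 against 7.88 to 8.38 (-0.82 ± 0.16, adjusted p = 0.431). MET16 read 9.44 and 9.34 against 9.73 to 10.07 (-0.54 ± 0.13, adjusted p = 0.728), and MET1 read 9.01 and 8.89 against 9.35 to 9.55 (-0.48 ± 0.11, adjusted p = 0.728). Since 2 arrays per deletion and an adjustment over 5498 probe sets stand behind these values, the low signals are a description and not a call. Over all alternatives the median of the 36 stayed between -0.24 and -0.09, the latter without bna1Δ array B.

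Without TNA1, the nicotinic acid permease, none of the 36 was called either (limma). At an unadjusted p under 0.05 there were 4 of the 36, a count not made over all probe sets, so it has no background to be set against. At the adjusted threshold 0.0182% of all probe sets were called, namely TNA1 alone. The differences fell on both sides of 0, 16 positive and 20 negative, with a median of -0.03 against -0.02 over all probe sets. Both tna1Δ arrays lay below wild type for SAM3 and MET32 (5.56%, against 6.58%) and above it for 0 (against 4.22%). The largest difference was that of MET13, at 8.18 and 8.24 within a wild-type range of 5.61 to 8.57 (1.05 ± 0.62, adjusted p = 0.79).

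The 5 comparisons share the wild-type arrays, so the conditions were also tested against each other. Nicotinamide against npt1Δ gave 15 of 36 higher and 1 lower, where 5.29% and 3.75% of all probe sets were called. Nicotinamide against pnc1Δ gave 14 higher and 3 lower, where 9.37% and 6.07% were called. Of the 15 genes raised over wild type, 13 were higher than in npt1Δ, 13 were higher than in pnc1Δ and 11 were higher than in both. The 15 were picked for high nicotinamide arrays, and all of these tests use those same arrays. The counts were not made for all 488 probe sets called higher over wild type, so they are no trait of the 36. Fitted on the arrays of nicotinamide and npt1Δ alone, 6 of 36 were called, and in the fit of all groups 8 without npt1Δ array A and 7 without nicotinamide array B. After quantile normalization 460 of all probe sets were higher and 455 lower in nicotinamide than in pnc1Δ, in place of 515 and 334.

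**Figure D4:**
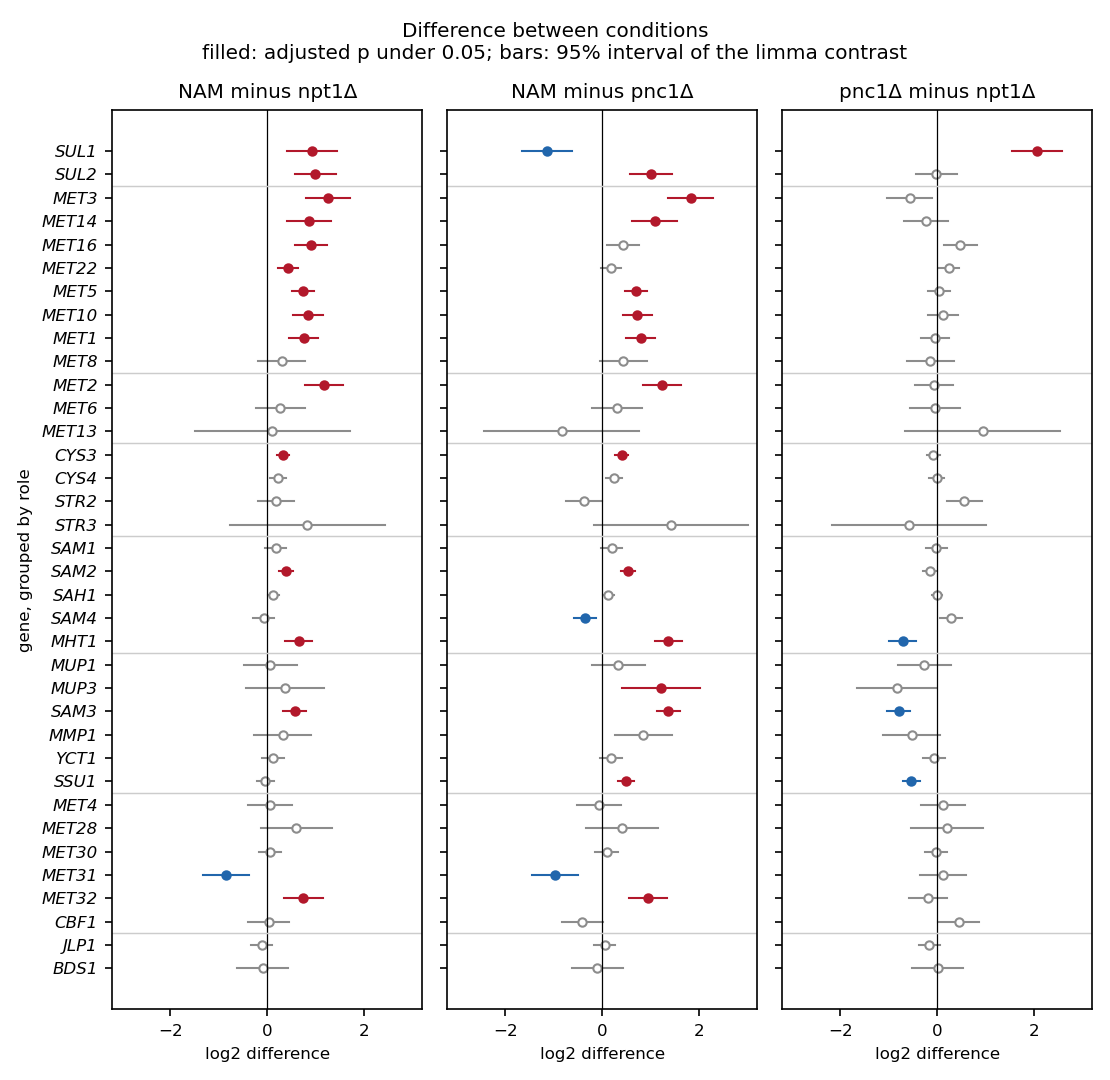
Log2 difference (points, with 95% intervals of the limma contrast as bars) of the 36 genes for nicotinamide against npt1Δ, nicotinamide against pnc1Δ, and pnc1Δ against npt1Δ, with called genes filled. Filled points above 0 number 15 and 14 in the nicotinamide panels and 1, SUL1, in the last.

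Of the 8 sulphate activation and reduction genes, 7 were higher in nicotinamide than in npt1Δ and 5 were higher than in pnc1Δ. MET3 was higher than in npt1Δ by 1.26 ± 0.21 (adjusted p = 0.00347) and higher than in pnc1Δ by 1.83 ± 0.21 (3.55-fold, adjusted p = 0.000142). MET2 was higher by 1.17 ± 0.18 (adjusted p = 0.00191) and 1.23 ± 0.18 (adjusted p = 0.000698). SUL2 was higher by 0.99 ± 0.19 (adjusted p = 0.00843) and 1.01 ± 0.19 (adjusted p = 0.00455). The zinc finger regulators MET31 and MET32 went opposite ways: MET31 was lower in nicotinamide than in npt1Δ (-0.85 ± 0.21, adjusted p = 0.0336) and pnc1Δ (-0.97 ± 0.21, adjusted p = 0.0107), and MET32 was higher (0.75 ± 0.18, adjusted p = 0.0263, and 0.95 ± 0.18, adjusted p = 0.00449). MET32 was not called against wild type, whose mean signal lay between those of nicotinamide and the deletions.

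SSU1, the gene called in nicotinamide, npt1Δ and, less firmly, pnc1Δ, had nearly the same level in nicotinamide and npt1Δ. Its difference between nicotinamide and npt1Δ was -0.04, with a 95% interval of -0.21 to 0.13 that excludes a 2-fold change in either direction. In pnc1Δ it was lower than in npt1Δ by a log2 difference of -0.53 ± 0.08 (adjusted p = 0.00179), and nicotinamide was above pnc1Δ by 0.50 ± 0.08 (adjusted p = 0.00119). SAM3 was graded, higher in nicotinamide than in npt1Δ by 0.57 ± 0.11 (adjusted p = 0.00702) and lower in pnc1Δ than in npt1Δ (-0.79 ± 0.11, adjusted p = 0.00115). MUP3 did not separate nicotinamide from npt1Δ (0.37, 95% interval -0.43 to 1.18), an interval wide enough to hold a 2-fold rise.

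SUL1 and MHT1 moved in opposite directions between the deletions. SUL1 was 4.18-fold higher in pnc1Δ than in npt1Δ (2.06 ± 0.23, adjusted p = 0.00031) and lower in nicotinamide than in pnc1Δ (-1.13 ± 0.23, adjusted p = 0.00751). Its npt1Δ signals, 2.36 and 2.55, lay close to the background limit, so the size of the fold is uncertain. MHT1 was lower in pnc1Δ than in npt1Δ (-0.71 ± 0.13, adjusted p = 0.00699). In all, pnc1Δ against npt1Δ gave 1 of 36 higher and 3 lower (MHT1, SAM3 and SSU1), where 1.26% and 4.77% of all probe sets were called. Over all probe sets 69 were higher and 262 lower in pnc1Δ, or 131 and 230 after quantile normalization.

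The genes differed widely in how far their untreated wild-type arrays spread. What part of the spread came from the cultures, the pairs or the arrays was not tested. The range over the 4 wild-type arrays went from 0.04 for SAH1 to 2.95 for MET13, with a median of 0.36, against 0.31 over all probe sets. MET13 read 5.61 and 6.94 in ML1 and 8.57 and 7.52 in ML8, and STR3 read 4.01 and 5.79 against 6.50 and 5.65. Both were lower in the ML1 pair, by log2 differences of -1.77 ± 0.47 (adjusted p = 0.193) and -1.18. Between the pairs 0 of the 36 were called (limma), where 0.0728% of all probe sets were called. At an unadjusted p under 0.05 there were 5 of the 36, a count not made over all probe sets, so it has no background to be set against. Array A of ML1 was the lowest wild-type array for 11 of the 36 and the highest for 14. The matching counts were 15 and 1 for ML1 array B, 7 and 13 for ML8 array A, and 3 and 8 for ML8 array B. They were not made over all probe sets. STR3 was called higher in nicotinamide without ML8 array A (2.16, adjusted p = 0.0368). With ML1 as the only control STR3 was called higher in nicotinamide (2.41, adjusted p = 0.0319) and MET13 higher in pnc1Δ (2.28, adjusted p = 0.031), and with the 4 arrays neither was (pnc1Δ MET13 1.40 ± 0.62, adjusted p = 0.33).

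The neighbouring pathways were counted list by list with nicotinamide. GSH1, the first and rate-limiting enzyme of glutathione synthesis from cysteine, read 10.79 and 10.98 against 10.17 to 10.31 (0.65 ± 0.07, 1.57-fold, adjusted p = 7.56e-05). ECM38, which breaks glutathione down, read 9.37 and 9.66 against 8.95 to 9.20 (0.42, adjusted p = 0.0413). These were 2 of 9 glutathione genes (22.2%), where 8.88% of all probe sets were called higher. Of 12 genes of methionine salvage and polyamines 1 was called (8.33%, a share near the background), ADI1, which acts late in the salvage cycle (0.35, adjusted p = 0.0354). None of 10 folate genes, of 5 genes from aspartate to homoserine and threonine, or of 4 broad permeases that take up methionine was called with nicotinamide. With 8.88% of all probe sets called higher, 0 calls in lists this short does not set them apart from the background.

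YHR112C, an uncharacterised relative of homocysteine synthase, moved in opposite directions in nicotinamide and pnc1Δ. It read 10.75 and 10.82 with nicotinamide and 10.08 and 10.10 in pnc1Δ, around a wild-type range of 10.41 to 10.44. The differences were 0.37 ± 0.04 (adjusted p = 0.000161) and -0.33 (adjusted p = 0.00348), and nicotinamide against pnc1Δ gave 0.70 ± 0.05 (1.63-fold, adjusted p = 4.27e-06). YHR112C was the only call among 3 measured relatives of 4 listed. Over all probe sets 8.88% were called higher with nicotinamide and 1.42% lower in pnc1Δ. The other 2 relatives, YML082W and IRC7, had negative differences with nicotinamide and positive ones in pnc1Δ. In npt1Δ MTD1 rose (0.59, adjusted p = 0.0162), 1 of 10 folate genes, against 3.56% of all probe sets. YCF1, a vacuolar transporter of glutathione conjugates, fell (-0.20, adjusted p = 0.0376), 1 of 9 glutathione genes, against 0.637% of all probe sets.

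Several of the 36 lie near chromosome ends, which the rule did not use. Among the 10 outermost protein-coding genes of an end were 7 of 36 (19.4%), namely SUL1, SAM4, MHT1, SAM3, MMP1, JLP1 and BDS1, against 235 of 5446 genes (4.32%). MHT1 and MMP1, which handle S-methylmethionine, are neighbours on chromosome XII, and SAM3 and SAM4, which handle S-adenosylmethionine, are neighbours on chromosome XVI. With nicotinamide 2 of these 7 were called higher (MHT1 and SAM3), against 13 of the other 29 with 1 lower, and 83 of all 235 outermost genes with 7 lower. Over all probe sets 8.88% were called higher and 7.02% lower, so outermost genes as a class were called higher more often. Within the pairs, SAM3 rose by 1.10 and SAM4 had a difference of -0.12, and MHT1 rose by 0.82 and MMP1 had 0.76 without a call. In npt1Δ 1 of the 7 was called higher (SAM3), against 47 of the 235 outermost genes with 1 lower, where 3.56% and 0.637% of all probe sets were called. In pnc1Δ SUL1 was higher and MHT1 lower, against 7 higher and 6 lower of the 235, where 0.818% and 1.42% of all probe sets were called.

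Counted over the 5 comparisons with wild type, 19 of the 36 genes were called in none, 14 in 1, 2 in 2 (MHT1 and SAM3) and 1 in 3 (SSU1). The 17 called in at least 1 were 47.2% of the 36, against 18.0% of all probe sets (989 of 5498), of which 774 were called in 1, 189 in 2 and 26 in 3. These comparisons share the wild-type arrays.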

How the data were processed

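The deposited values are log2 signals of 10928 probe sets on 14 arrays, which the authors computed with GCRMA (background correction, quantile normalization and summary of each probe set), per the submitters' processing notes. No GCRMA version is named there. They were used as deposited. Probe sets were named through the platform annotation and reference assembly R64 (names and gene order only), which left 5498 probe sets of 1 S. cerevisiae gene each. The background limit of an array is the 95th percentile of the 1746 probe sets whose gene is not in that reference.

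Differences were tested with limma 3.58.1 (R 4.3.3; lmFit and eBayes) on all 14 arrays, with the 4 wild-type arrays as 1 group because the labels do not tie a pair to a condition. P values were adjusted by Benjamini-Hochberg over the 5498 probe sets of each comparison and called under 0.05, with no filter. The fit had 8 residual degrees of freedom and 2.01 prior ones (prior SD 0.101). Precision is limited by the number of arrays. The procedure was tested on simulated data.

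The 36 genes, their roles and the pathway lists were chosen with earlier results of these data known, and the a-specific list was added later. All 36 are named, with values per array for those called against wild type, in full for the 4 largest differences per comparison and for genes called more than once. A member whose values are given without a call was chosen after its values were seen. Lists are described by counts and medians beside those of all probe sets. The labels do not say what the replicate letters A and B share, and the main fit has no block for them. Promoter sequences were not used here.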

Additional observations from a re-analysis of the deposited data

Results flagged for a closer look

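For 2 of the 36 genes a single wild-type array lay apart from the remaining 3, judged in relation to how close those 3 were. By chance about 1 gene in 20, or 1.8 of the 36, would do so. Both concern array A of the ML1 pair. CYS3 read 14.25 there, below 14.34, 14.33 and 14.34 on the other wild-type arrays, and MET28 read 6.42, below 7.21, 7.19 and 7.26. The whole wild-type range of CYS3 was 0.09, against a median of 0.36 over the 36, so its gap was small in size. That of MET28 was 0.84, above the median, so its gap was not small. The wild-type mean behind the uncalled nicotinamide difference of MET28 includes this low array. The nicotinamide difference of CYS3 lay between 0.24 and 0.33 with each array of the comparison left out in turn.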

How the results depend on the processing

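The number of the 36 genes called with nicotinamide against wild type was 16, and 14 to 18 over the 10 alternatives of control pair, grouping, block, normalization, filter and moderation; leaving out 1 array gave 8 to 17, the lowest without nicotinamide array B. For npt1Δ against wild type, leaving out 1 array gave 1 (without npt1Δ array B) to 2 in place of 2, and the other alternatives 2 to 3. For pnc1Δ against wild type the count of 3 became 5 with the replicate block, 1 with only the arrays of the groups compared, and 0 to 5 with 1 array left out. Nicotinamide against npt1Δ gave 6 in place of 16 with only the arrays compared, and 7 to 13 with 1 array left out. Nicotinamide against pnc1Δ gave 13 to 15 with 1 array left out, in place of 17. The count for pnc1Δ against npt1Δ became 7 in place of 4 with the replicate block, and 3 to 4 with 1 array left out. For bna1Δ and tna1Δ it was 0 under every alternative run. The replicate block moved no other count by over 1.5 times. Same-letter arrays deviated together in most group pairs but not in all (correlations of -0.23 to 0.59, median 0.39, over 21 pairs of groups), so the letters were not taken to pair the cultures. Array A was above array B in all 7 groups for MET3, MET14 and MET8 (8.33% of the 36, against 6.51% of all probe sets). With the block, calls over all probe sets went from 874 to 1045 with nicotinamide, and MET8 with nicotinamide (0.46, adjusted p = 0.0024), MUP3 in npt1Δ (0.74, adjusted p = 0.0351) and MET3 (-0.56, adjusted p = 0.0352) and MET2 (-0.50, adjusted p = 0.0394) in pnc1Δ were called. Of 400 values of single genes over 25 differences from wild type, 21 of them called and the others at least 2-fold, 362 kept their direction and side of the threshold, 35 lost the call, 3 gained it and 0 changed direction. Among the 159 differences not called, 14 were called in at least 1 alternative, 23 times in all, 8 of these for MMP1. After quantile normalization the dim JLP1 was called lower with nicotinamide (-0.40, adjusted p = 0.0066) and SUL1 lower in npt1Δ (-0.88, adjusted p = 0.0307). The causes were not tested. Signals near background, as for JLP1 and SUL1, limit what can be said of these genes.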
